A study of Homo sapiens with 3 samples.

Results

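Selenoproteins and the enzymes that handle thiols, peroxide and superoxide were described in HEK293T, a human embryonic kidney cell line, from 3 RNA-seq replicates of a single untreated condition. The group holds 40 genes of the 61193 genes that could be matched, and it was chosen by name: 20 selenoproteins, TXNRD2 among them, and 20 other genes of thiol and superoxide defence with their regulators NFE2L2 and KEAP1. Cells were seeded in flasks and collected 24 h later, without treatment. The sample labels call the material genomic DNA, whereas the protocol describes 2 µg of total RNA and a QuantSeq 3′ library, in which reads come from near the 3′ end of a transcript. The study describes the replicates as independent biological ones. With a single condition there was nothing to compare between groups, so levels are given with their SD (n = 3) and no test was made.

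Selenoproteins carry selenocysteine, a cysteine analogue with selenium in place of sulphur, which is inserted at a UGA codon that would otherwise end translation. Reading that codon needs a hairpin in the 3′ part of the mRNA, a dedicated tRNA and selenophosphate as the selenium donor. Thioredoxin reductases and glutathione peroxidases are the best known selenoenzymes. The former keep thioredoxin reduced, and the latter use glutathione to reduce peroxides. Peroxiredoxins and catalase remove peroxides without selenium, and the superoxide dismutases act on superoxide. Many of these genes are induced by NRF2, the product of NFE2L2, which KEAP1 holds back in unstressed cells and which binds antioxidant response elements in promoters.

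The selenocysteine codons show what sets the 20 selenoproteins apart in sequence. In the canonical GENCODE v44 transcripts, an in-frame TGA lay before the stop codon in 20 of 20 selenoproteins and in 0 of 20 other members. There was 1 such codon in 18 selenoproteins, 2 in SELENON and 10 in SELENOP, the plasma selenium carrier. The windows below were chosen to show the placement near the end of the protein in the 3 thioredoxin reductases, SELENOK and SELENOS, and nearer the start in GPX1, GPX4 and SEPHS2. Each reads 5′ to 3′ on the coding strand, with up to 7 codons on either side and the selenocysteine codon in capitals.
TXNRD1: agcatcctccaggctggctgcTGAggttaa
TXNRD2: gaccccacggtgacaggctgcTGAgggtaa
TXNRD3: gacatcactcagaaaggctgcTGAggctag
SELENOK: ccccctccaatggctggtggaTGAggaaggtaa
SELENOS: agaggcccgtcatctggcggaTGAggctaa
GPX1: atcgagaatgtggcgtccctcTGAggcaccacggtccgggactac
GPX4: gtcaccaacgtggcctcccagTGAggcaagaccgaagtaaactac
SEPHS2: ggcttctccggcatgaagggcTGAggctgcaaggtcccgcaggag

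On GRCh38 these exonic coding positions were chr12:104348413-104348415 (plus strand) for TXNRD1, chr22:19877111-19877113 (minus) for TXNRD2 and chr3:126607911-126607913 (minus) for TXNRD3. SELENOK had its codon at chr3:53885831-53885833 (minus), and SELENOS at chr15:101272777-101272779 (minus). The codon of GPX1 was at chr3:49358132-49358134 (minus), that of GPX4 at chr19:1105403-1105405 (plus) and that of SEPHS2 at chr16:30445548-30445550 (minus). In TXNRD1, TXNRD2, TXNRD3 and SELENOS a single codon followed it before the stop, and in SELENOK 2 did. GPX1 had it at codon 49 of 203, GPX4 at 73 of 197 and SEPHS2 at 60 of 448. SEPHS2 was the only one of the 20 whose stop codon was itself TGA, so the same triplet is read there in both ways within a single coding sequence.

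**Figure D1:**
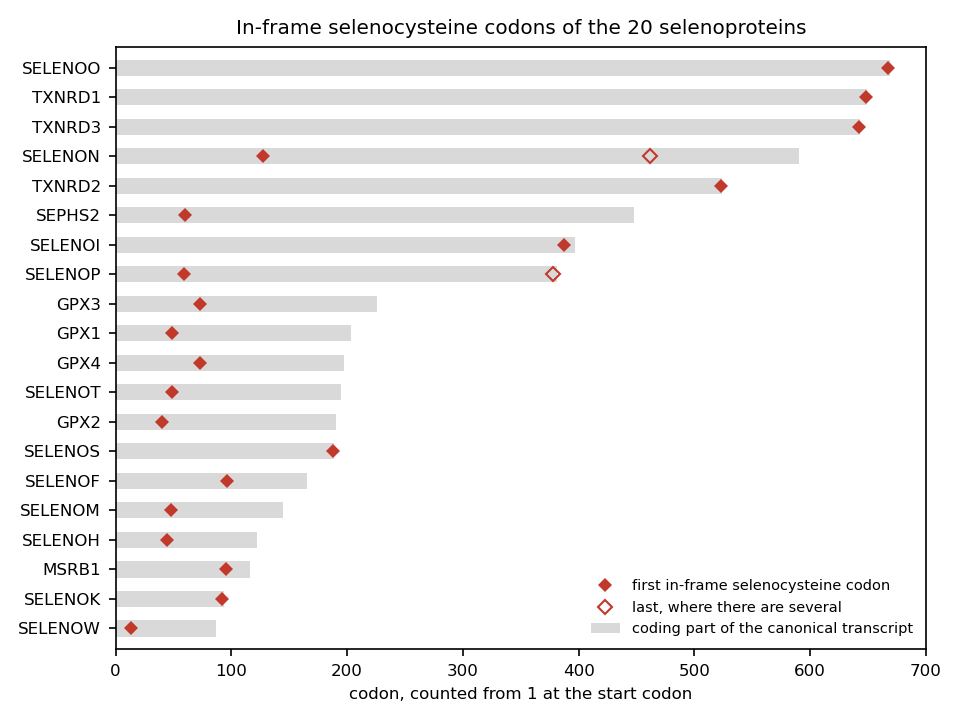
Position of in-frame selenocysteine codons (x axis, codons counted from the start codon) in the coding part (grey bars) of the canonical transcript of each of the 20 selenoproteins, with filled diamonds for the first codon and open ones for the last where there are several. In the 3 thioredoxin reductases, SELENOS, SELENOK and SELENOO the codon sits at the very end, and in SELENOW, the shortest at 87 codons, it is codon 13.

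The libraries held 6262175 to 8521624 counts. Mitochondrial genes took 25.8% of the counts in replicate 3, against 9.59% in replicate 1 and 5.70% in replicate 2, so ratios between replicates are given in counts per 1000000 nuclear counts (nuclear CPM). A count of 0 allows up to 3 counts, or 0.352 to 0.479 CPM by library, a limit that covers counting error only. The summed TPM of the 40 members was lower in replicate 3, where mitochondrial genes held 44.2% of the TPM. Of 8 genes fixed as HEK293T markers, 5 reached a mean of 1 TPM, led by IGF2BP1 at 232 ± 81.8 TPM, and NEFL and NEFM had 0 counts. Of 13 markers of blood, liver, fibroblast, fat and skin cells, 10 had 0 counts in every replicate and COL1A1, a collagen of fibroblasts, had 24.8 ± 0.330 TPM. The summed TPM of these 13 markers was 24.6 to 25.3, and its part in the levels of the 40 genes was not tested.

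Levels are in TPM, that is counts divided by transcript length and scaled within a library. Since reads come from the 3′ end, the division lowers genes with long transcripts, as in GCLM with 26.4 TPM and 85.8 CPM, and comparisons between genes carry that limit. In bulk RNA, fewer cells with a transcript and less of it per cell cannot be told apart. Of the 40 genes, 18 reached a mean of 1 TPM, the level taken as expressed, which is 45.0% beside 38.2% of 19926 protein-coding genes and 21.7% of all genes. Expressed genes were divided by the quartiles of their mean TPM, 2.40 and 24.1, into low, medium and high. In the high class were 10 of the 40 (25%, beside 12.5% of protein-coding genes), 6 were medium and 2 low. At the other end, 20 of the 40 (50%) had at most 3 counts in each replicate, beside 50.9% of protein-coding genes, and 13 of those had no count at all. SELENOH at 0.976 ± 0.606 TPM and GCLC at 0.580 ± 0.327 TPM had more counts than that without reaching 1 TPM.

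The selenoproteins were the lower part of the set. Expressed were 6 of 20 selenoproteins and 12 of 20 other members, with 3 and 7 in the high class. The median over the 20 selenoproteins was 0.104 TPM and that over the 20 others 5.75 TPM. Since 13 selenoproteins and 7 others had at most 3 counts in each replicate, the selenoprotein median rests on values at or under the floor. Together the 40 genes held 0.273% to 0.463% of the TPM of a library, and PRDX3, PRDX6 and SEPHS2 alone gave 79.2% of their counts. Whether the shares of expressed genes differ between the lists was not tested.

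**Figure D2:**
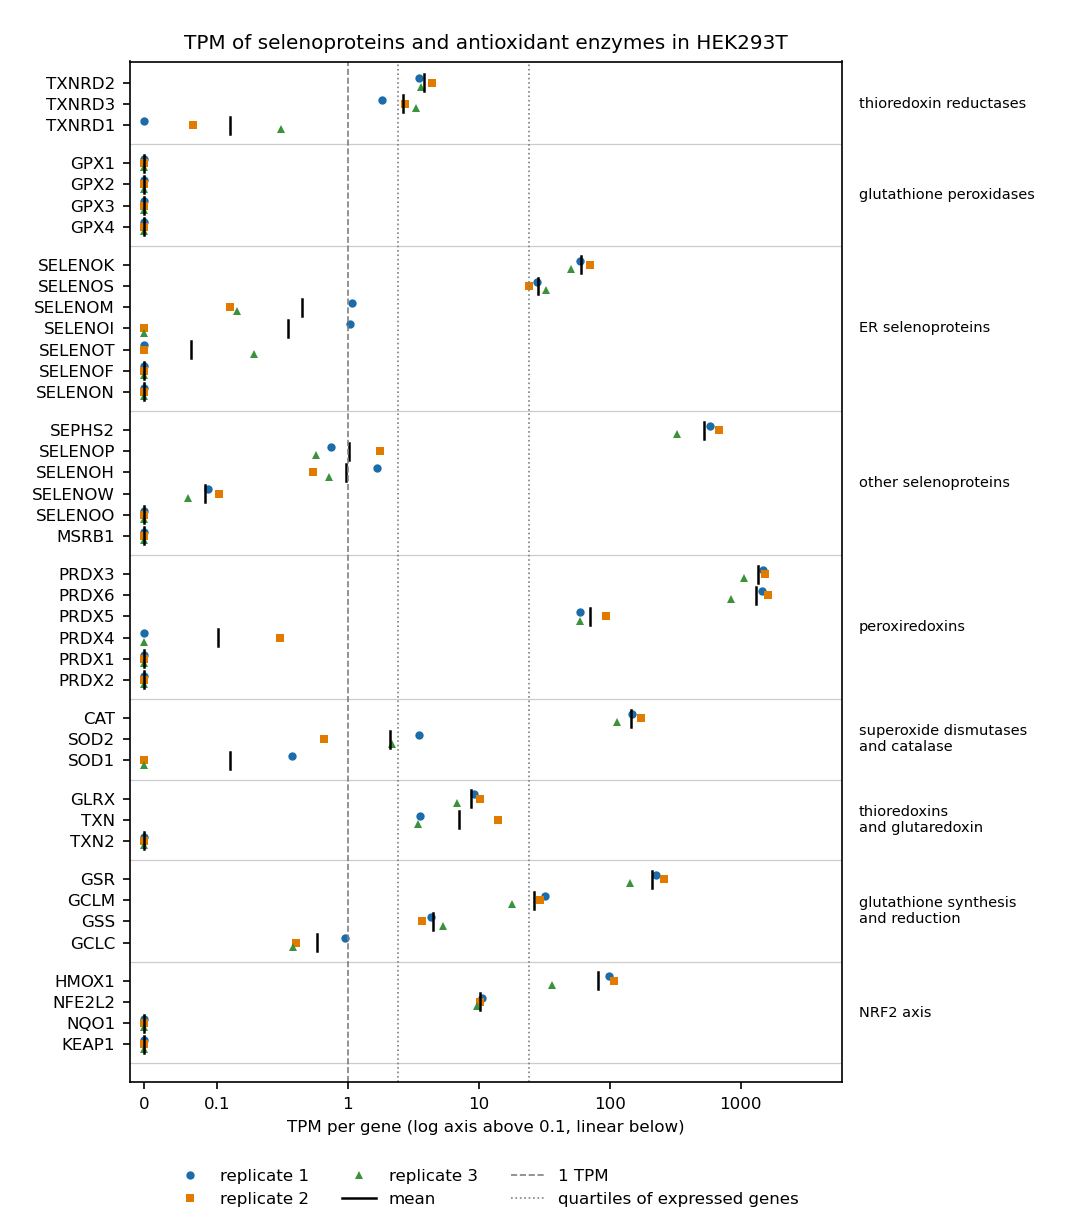
TPM per gene (x axis, logarithmic above 0.1 and linear below) of the 40 members by role, with a symbol per replicate, a bar for the mean, a dashed line at 1 TPM and dotted lines at the quartiles of expressed genes. The points of PRDX3 and PRDX6 lie between 845 and 1613 TPM, the 4 glutathione peroxidases are at 0, and replicate 3 is the lowest of the replicates for PRDX3, PRDX6, SEPHS2, GSR, CAT and HMOX1.

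Among thioredoxin reductases, the mitochondrial and the testis-rich form were measured and the cytosolic form was almost without counts. TXNRD2, the mitochondrial enzyme, had 27, 28 and 22 counts in replicates 1 to 3 and 3.83 ± 0.479 TPM. TXNRD3, which reduces both thioredoxin and glutathione, had 24, 29 and 65 counts and 2.63 ± 0.771 TPM. Their order depended on the scale. TXNRD2 was higher in TPM, whereas without division by length TXNRD3 was higher, at a mean of 5.23 CPM against 3.63, and with protein_coding transcripts only TXNRD3 had 2.56 TPM against 2.32. TXNRD1, the cytosolic enzyme, had 0, 1 and 1 counts, all under the floor.

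Glutathione peroxidases gave no count in any library. GPX1 (cytosolic), GPX2 (gut epithelium), GPX3 (plasma) and GPX4, which reduces lipid peroxides in membranes and guards against ferroptosis, each had 0 counts in replicates 1, 2 and 3. GPX8, a relative in the endoplasmic reticulum that has no selenocysteine, had 443, 366 and 861 counts.

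Of 7 selenoproteins of the endoplasmic reticulum, 2 were expressed, and both belong to the complex that exports misfolded proteins for degradation. SELENOK had 401, 403 and 507 counts and 60.01 ± 9.75 TPM, and SELENOS, the VCP-binding protein VIMP, had 120, 106 and 173 counts and 28.2 ± 4.46 TPM. SELENOK was above SELENOS in each replicate, by 2.13, 2.92 and 1.54 times in TPM. These ratios include retained-intron transcripts of SELENOS, which had 15.1 TPM with protein_coding transcripts only and 18.1 CPM without division by length. The remainder were at or under the floor: SELENOM, a thioredoxin-fold protein, had 3, 1 and 1 counts, SELENOI, a phospholipid-synthesising enzyme, had 2, 0 and 0, and SELENOT had 0, 0 and 1. SELENOF, a partner of glycoprotein folding, and SELENON, a muscle-disease gene involved in calcium handling, had 0 in each.

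SEPHS2 was the selenoprotein with the most counts. The gene lies at chr16:30443631-30445874 on the minus strand (GRCh38), and its enzyme makes selenophosphate, so it is both a selenoprotein and part of the machinery that makes selenoproteins. Its counts were 5908, 5862 and 4896, and its TPM of 580, 681 and 327 averaged 530 ± 182, which put it at rank 229 of the 61193 genes. SELENOP had 14, 28 and 16 counts and 1.02 ± 0.636 TPM. It was at 0.657 TPM without replicate 2, at 0.739 as the median over replicates and at 0 with protein_coding transcripts only, so its place among the expressed genes was lost in each. SELENOH, a nucleolar protein, had 11, 3 and 7 counts, and SELENOW, a small thioredoxin-fold protein of muscle and brain, had 1 in each. SELENOO, a mitochondrial AMPylating enzyme, and MSRB1, which reduces oxidised methionine, had 0 counts.

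Peroxiredoxins held the highest levels and also 2 genes at 0, and their 6 genes summed to 2734 ± 670 TPM of the 3858 ± 999 TPM of all 40. PRDX3 (chr10:119167720-119178812, minus strand), the mitochondrial enzyme, had 10439, 9095 and 11060 counts and TPM of 1481, 1526 and 1067, a mean of 1358 ± 253. PRDX6 (chr1:173477330-173488815, plus strand), which uses glutathione and also acts on phospholipids, had 11162, 10453 and 9529 counts and TPM of 1456, 1613 and 845, a mean of 1305 ± 406. Their ranges overlapped and their order changed between replicates. PRDX5 had 230, 311 and 342 counts and 71.0 ± 20.2 TPM, under PRDX3 by 25.1, 16.2 and 17.9 times. Other listed transcripts cover most of the 3′ end of PRDX5 and none of that of PRDX3. PRDX4, the secretory-pathway enzyme, had 0, 1 and 0 counts, and the abundant cytosolic forms PRDX1 and PRDX2 had 0.

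Catalase, the peroxisomal enzyme that splits hydrogen peroxide, was high in every library. CAT had 1497, 1491 and 1679 counts and TPM of 148, 175 and 113, a mean of 145 ± 31. SOD2, the mitochondrial manganese dismutase, had 49, 13 and 35 counts and 2.11 ± 1.44 TPM (1.41 without replicate 1), and SOD1, the cytosolic copper-zinc enzyme, had 1, 0 and 0. SOD2 was above SOD1 in 3 of 3 replicates, and the value of SOD1 was under the floor.

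Thioredoxin and cytosolic glutaredoxin were of medium level as listed, and the mitochondrial thioredoxin was at 0. TXN had 12, 40 and 17 counts and TPM of 3.59, 14.2 and 3.46, a mean of 7.07 ± 6.14, or 3.52 without replicate 2. With the processed pseudogenes named after it added, TXN stood at 784 TPM, so its level is uncertain. GLRX, the cytosolic glutaredoxin, had 35, 37 and 35 counts and 8.73 ± 1.76 TPM. TXN2, the mitochondrial thioredoxin, had 0 counts in each replicate.

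In the glutathione route, whose 4 genes summed to 242 ± 67.0 TPM, the reductase and the regulatory subunit of the first enzyme were high. GSR, which returns oxidised glutathione to its reduced form, had 3126, 3049 and 2905 counts and TPM of 227, 262 and 144, a mean of 211 ± 60.9. GCLM, the modifier subunit of glutamate-cysteine ligase, had 706, 552 and 586 counts and 26.4 ± 7.42 TPM. GCLC, the catalytic subunit of the same enzyme, had 14, 4 and 9 counts, which placed GCLM above it by 33.3, 73.5 and 47.2 times in TPM. Other listed transcripts cover all of the 3′ end of GCLC and none of that of GCLM. GSS, which completes glutathione, had 17, 13 and 33 counts and 4.44 ± 0.809 TPM, or 0.25 TPM with protein_coding transcripts only.

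Of the NRF2 axis, the heme-degrading enzyme led. HMOX1 (chr22:35380361-35394214, plus strand) had 698, 647 and 374 counts and TPM of 99.2, 109 and 36.1, a mean of 81.3 ± 39.4, with replicate 3 well under the other two. NFE2L2 itself had 24, 20 and 32 counts and 10.2 ± 0.503 TPM. In nuclear CPM its CV was 21.5%, and its level was 3.46 CPM without division by length. NQO1, a quinone reductase, and KEAP1 had 0 counts in each library.

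Ordered by mean TPM, the 18 expressed genes form 17 neighbouring pairs, of which 6 did not overlap between replicates. The separated steps were PRDX6 over SEPHS2, SEPHS2 over GSR, CAT over HMOX1, SELENOK over SELENOS, GCLM over NFE2L2, and TXNRD2 over TXNRD3, the last of which turned in CPM and with protein_coding transcripts only, as given above. The other 11 neighbours overlapped, from PRDX3 and PRDX6 at the top to SOD2 and SELENOP at the bottom. Of these 11, GSR over CAT and NFE2L2 over GLRX still had the same order within each of the 3 libraries, and the others changed order between libraries. Of 15 listed paralog or partner pairs, 10 had a gene above 3 counts in every replicate, and in those 10 the same gene was higher in each replicate. In the remaining 5 both genes had at most 3 counts throughout. In 4 of the 10 both genes were above 3 counts in each library. The 3′ ends of these pairs differ in annotation, as given below.

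The counts moved with how the 3′ end of a gene is annotated. For each canonical transcript, the last 300 exonic bases were compared with the deposited transcripts on the same strand that match GENCODE v44, with v44 exons. These are the listed transcripts here, and a base was taken as its own when no other listed transcript covers it. The 23983 unmatched transcripts were left out, so whether they cover these bases is not known. Of 19 members with no base of their own there, 4 were expressed (TXNRD2, SELENOS, HMOX1 and NFE2L2) and 13 had at most 3 counts. Of 12 members whose 300 bases were all their own, 9 were expressed (PRDX3, PRDX6, SEPHS2, GSR, CAT, GCLM, SELENOK, TXNRD3 and SOD2). In SOD2, however, the canonical transcript had 29.9% of the counts. Another coding transcript, with no base of its own in its last 300, had 63.9%. Over protein-coding genes with no base and with every base of their own, the shares expressed were 26.0% of 7840 and 53.4% of 7600. The shares with at most 3 counts in each replicate were 62.8% and 36.8%. In the 4 pairs with both genes above 3 counts in each library, the higher gene had 100% of its end as its own. The lower gene had 23.0% (PRDX5), 0.333% (GSS) or 0% (GCLC and SELENOS). These percents are of the canonical transcript, which had no counts in GSS, GCLC and SELENOS. In GSS (95.2%) and SELENOS (79.4%) most counts lay on a transcript whose last 300 bases were all its own. In GCLC 70.4% lay on a transcript with no base of its own there. Among the other pairs, TXNRD2 with 0% was above TXNRD1 with 8.0%, and NFE2L2 and KEAP1 were both at 0%. The part of this overlap in the low counts was not tested, because the setting for reads that fall on several transcripts is not given in the sources used here.

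Of the 13 genes with no count, 10 had no base of their own, and the matching share over all genes with no count was not measured. GPX1 had 5 listed transcripts over its end, GPX4 9, PRDX1 5, PRDX2 3, KEAP1 3 and NQO1 2, whereas SEPHS2 had a single listed transcript for the whole gene. There were exceptions in the other direction. SELENOI, SELENOT and MSRB1 had ends wholly their own and SELENOF 93.3% of its end, and each had at most 3 counts.

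At the level of transcripts the same held. Of 310 listed transcripts of the 40 genes, 219 had no base of their own in the last 300, and 6 of those (2.74%) had more than 3 counts in any replicate, against 24 of the other 91 (26.4%). These 91 held 98.0% of the members' counts. Over all listed transcripts the figures were 2.28% and 20.6%, and 94.5% of counts. The members were close to all listed transcripts in these shares.

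**Figure D3:**
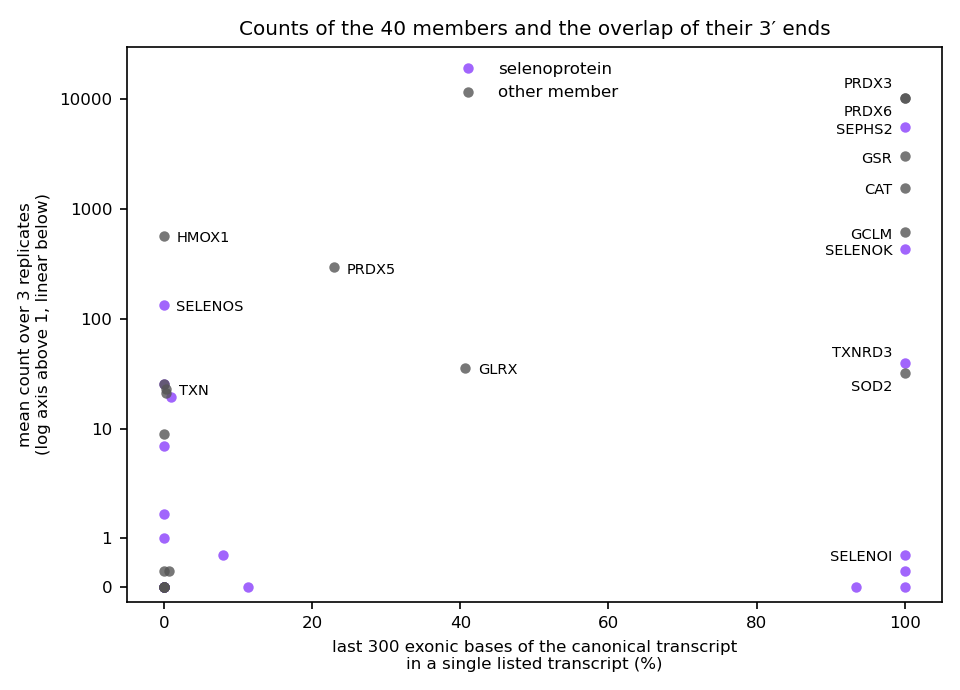
Mean count over the 3 replicates (y axis, logarithmic above 1 and linear below) of the 40 members against the percent of its 3′ end, the final 300 exonic bases, that no other listed transcript covers (x axis). The 5 genes with the most counts (PRDX3, PRDX6, SEPHS2, GSR and CAT) are at 100%, where 3 genes are also at or near 0, and HMOX1, SELENOS and PRDX5 are the highest points from 0% to 23.0%.

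In 12 of the 18 expressed members the canonical transcript took the most counts, and in 6 another one did. All counts of SELENOK, PRDX5, PRDX6, GCLM, GSR, TXN and SEPHS2 lay on the canonical transcript. TXNRD2 had none there: 74.0% of its counts were on a coding transcript of 2238 bases whose last 300 bases are its own. SELENOS likewise had 79.4% on a non-canonical coding transcript of 1439 bases. The counts of GSS lay at 95.2% on a transcript of 920 bases without a defined coding part, those of SELENOP wholly on a transcript of 4175 bases that retains an intron, and those of NFE2L2 at 86.8% on a transcript listed with 455 bases. The division by so short a length is part of the TPM of NFE2L2, whose 20 to 32 counts are close to those of TXNRD2.

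The deposited lengths also showed that the annotation behind the table was not identical to GENCODE v44. Of the 310 transcripts, 24 differed in length, among them the 455-base NFE2L2 transcript (1325 bases in v44). Another was the only listed transcript that covers the end of HMOX1 besides its own (582 bases in the table, 1697 in v44). With transcripts of differing length set aside, which was added after seeing the data, the own share of the end rose from 0% to 100% in HMOX1 and GPX1, and 3 genes (TXNRD3, MSRB1 and SOD1) had no value because their canonical transcript differed itself.

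Between replicates, 10 members had at least 50 counts in each library. In nuclear CPM, HMOX1 was at 110.0, 109.6 and 59.2, so replicate 3 was lower than the mean of the others by a log2 ratio of -0.89, and 1.40% of 5656 nuclear genes with as many counts lay lower still. SELENOS was the highest of the 10 in that ratio, at 18.9, 18.0 and 27.4 with a log2 ratio of 0.57. Over the 5656 genes the median was 0.08 with quartiles of -0.17 and 0.38. SEPHS2 (-0.31), PRDX6 (-0.23), GCLM (-0.14) and GSR (-0.13) were lower in replicate 3, and SELENOK (0.29), PRDX5 (0.28), PRDX3 (0.14) and CAT (0.12) higher. In all, 5 of 10 were lower (50%), beside 41.9% of the 5656 genes.

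On that scale the CV was 31.4% in HMOX1 and 24.2% in SELENOS, and it was lowest among the 10 in PRDX3 (6.38%), CAT (5.93%) and GSR (5.81%). The highest and lowest replicate differed by 1.86 times in HMOX1 and by a median of 1.23 times over the 10 members, beside 1.30 times over the 5656 genes. Mitochondrial share and these ratios both differ in replicate 3, and their relation was not tested.

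**Figure D4:**
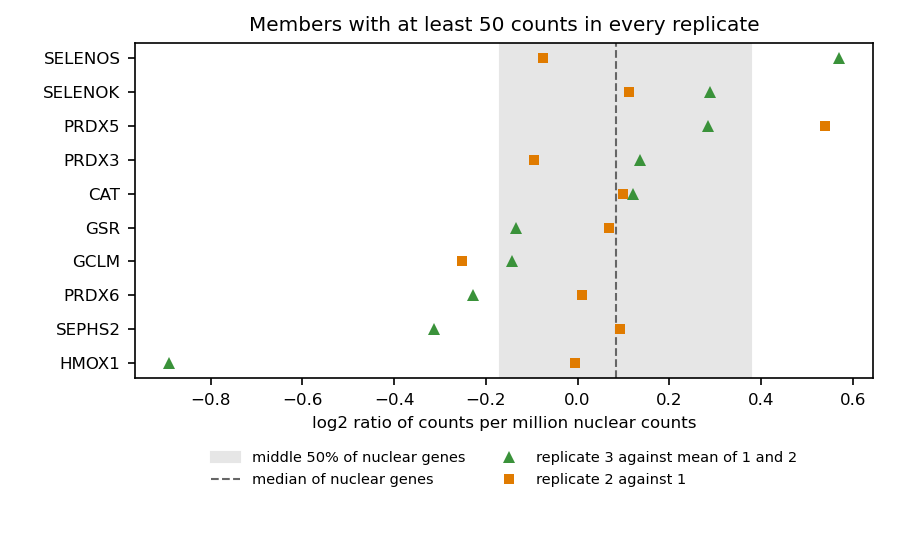
Log2 ratio of nuclear CPM (x axis) for the 10 members with at least 50 counts in every replicate, with triangles for replicate 3 against the mean of replicates 1 and 2 and squares for replicate 2 against replicate 1. The grey band is the middle 50% of 5656 nuclear genes, and HMOX1 at -0.89 and SELENOS at 0.57 lie farthest outside it.

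Processed pseudogenes, intronless copies of mRNAs elsewhere in the genome, carried counts where some parents had few. Of 36 named after a member, 8 reached 1 TPM, a share close to the 21.7% of all 61193 genes, and 18 had no count. TXNP6 on chromosome 4 had 678, 679 and 1074 counts and 524 ± 44.8 TPM, and TXNP4 on chromosome 17 had 279, 279 and 339 counts and 199 ± 35.4 TPM. TXNP1 followed with 34.2 ± 8.85 TPM and TXNP5 with 19.1 ± 4.09. Summed over its 7 copies, TXN pseudogenes had 86.1, 26.0 and 90.5 times the counts of TXN itself.

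PRDX1 had 0 counts, and PRDX1P1 had 63, 61 and 65 and 22.1 ± 5.27 TPM. PRDX2P4, SELENOKP1 and SELENOKP2 also reached 1 TPM, with PRDX2 itself at 0, whereas all the SELENOK copies together had 7, 15 and 14 counts against 401, 403 and 507 for SELENOK. The 4 copies of PRDX3 together took 1 count in replicate 1 and 0 in the others. Of the 31-base words in TXNP6, 18.9% also occur in a TXN transcript, and of those in PRDX1P1 14.8% occur in PRDX1. The study sequenced 75 bases per read, longer than these words, so the shares do not measure how many reads could be placed on either gene. The levels of TXN and PRDX1 remain uncertain, and the part of such placement was not tested.

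The 75 bases of the coding part of TXN that are most like TXNP6 are shown as an example of the likeness, with differing bases in capitals. They lie at chr9:110244194-110244826 on the minus strand, across an exon junction, and at chr4:76958892-76958966 on the minus strand for TXNP6, and they differ at 1 base.
TXN: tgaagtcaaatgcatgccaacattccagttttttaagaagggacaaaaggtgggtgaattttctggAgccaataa
TXNP6: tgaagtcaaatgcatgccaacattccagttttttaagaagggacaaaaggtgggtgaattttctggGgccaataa

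**Figure D5:**
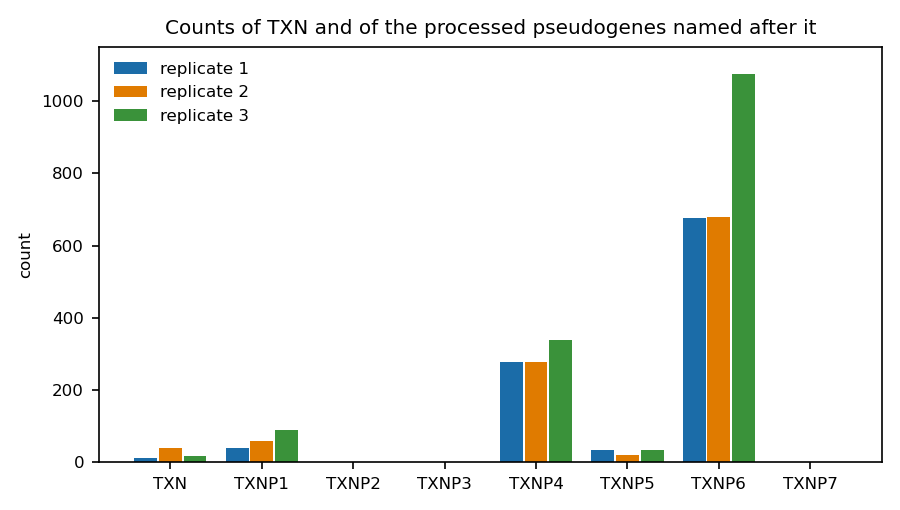
Counts (y axis) of TXN and of the 7 processed pseudogenes named after it in replicates 1, 2 and 3. TXNP6 reached 678 to 1074 counts and TXNP4 279 to 339, and TXN had 12 to 40.

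Promoters of 31 of the 40 genes were found in the RefSeq table (GRCh38.p14), which gives 250 bases before and 50 after each start, with 43 starts for the 31. TXN2, GSR, GSS, SOD1, HMOX1, PRDX1, SELENOO, SELENOM and PRDX6 were not in it. The antioxidant response element core, searched as TGACNNNGC on both strands, was present for 7 of the 31 genes (22.6%), beside 16.1% of 27305 genes, and in 8 of 43 promoters (18.6%), beside 13.3% of 35116. The genes were TXNRD1, GPX2, SELENOK, SELENON, SELENOP, GCLM and KEAP1. With an A required after the last C, it was present for 6 of 31 (19.4%) beside 3.94%. The opening letters of this core are shared with the AP-1 element, and a match is a description of letters, not a site.

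Putative iM- or G4-forming sequences, defined by 4 tracts of at least 3 Cs or Gs with loops of 0 to 7 bases, were found for 14 of 31 genes (45.2%), beside 29.6% of 27305, and in 44.2% of their promoters, beside 26.8%. C tracts on the strand of the gene were present for 10 genes (32.3%, beside 16.6% of 27305) and G tracts for 8 (25.8%, beside 17.6%). Of the expressed members, TXNRD2, TXNRD3, SOD2, GCLM and NFE2L2 had such a sequence. So did GPX3, GPX4, SELENOF, SELENON, MSRB1, NQO1 and KEAP1, which had 0 counts, and SELENOH and SELENOW, which did not reach 1 TPM. Whether these sequences fold in these cells was not measured in the RNA data.

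The 250 bases before the start are shown for the expressed genes GCLM and SELENOK and for TXNRD1 (second start) and KEAP1 (second start), with the core in capitals, and for NFE2L2 with its G tracts in capitals. Each reads 5′ to 3′ on the strand of the gene. In GCLM (chr1:93909431-93909680, minus strand) the core lay at -34 to -26 on the opposite strand, and C tracts lay at -115 to -84. In SELENOK (chr3:53891860-53892109, minus) it lay at -117 to -109, and in TXNRD1 (chr12:104286782-104287031, plus) at -102 to -94 on the opposite strand. KEAP1 (chr19:10502772-10503021, minus) had it at -54 to -46 and, on the opposite strand, at -31 to -23, where the letters TGACTAAGC were those found in GCLM. The G tracts of NFE2L2 (chr2:177264132-177264381, minus) lay at -246 to -220 and -184 to -149.
GCLM: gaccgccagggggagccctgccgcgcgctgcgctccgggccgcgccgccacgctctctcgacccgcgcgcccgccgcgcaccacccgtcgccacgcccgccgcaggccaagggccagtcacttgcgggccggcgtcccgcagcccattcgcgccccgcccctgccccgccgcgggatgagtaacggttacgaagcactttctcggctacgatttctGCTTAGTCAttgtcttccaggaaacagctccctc
SELENOK: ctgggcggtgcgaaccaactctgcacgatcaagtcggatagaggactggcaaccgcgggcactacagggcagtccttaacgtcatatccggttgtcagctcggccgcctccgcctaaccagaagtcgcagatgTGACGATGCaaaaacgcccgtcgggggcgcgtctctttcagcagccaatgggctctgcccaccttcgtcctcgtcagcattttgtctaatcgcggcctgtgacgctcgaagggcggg
TXNRD1: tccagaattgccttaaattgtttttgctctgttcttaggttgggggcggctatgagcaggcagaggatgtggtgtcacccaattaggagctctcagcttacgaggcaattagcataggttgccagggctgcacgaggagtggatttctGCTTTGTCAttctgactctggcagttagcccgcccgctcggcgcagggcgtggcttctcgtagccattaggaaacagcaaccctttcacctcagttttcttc
KEAP1: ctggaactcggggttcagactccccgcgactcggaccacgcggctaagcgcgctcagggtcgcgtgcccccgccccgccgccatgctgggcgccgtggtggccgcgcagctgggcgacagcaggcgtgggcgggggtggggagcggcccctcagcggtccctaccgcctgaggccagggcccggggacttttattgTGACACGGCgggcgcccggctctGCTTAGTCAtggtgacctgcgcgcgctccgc
NFE2L2: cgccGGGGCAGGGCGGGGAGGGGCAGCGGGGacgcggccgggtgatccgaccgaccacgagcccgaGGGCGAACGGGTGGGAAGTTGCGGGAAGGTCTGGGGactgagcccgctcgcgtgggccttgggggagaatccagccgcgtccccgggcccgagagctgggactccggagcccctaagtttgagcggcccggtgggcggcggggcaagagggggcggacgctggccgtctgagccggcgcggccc

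The surroundings of the set were taken from 4 further lists. Of 7 genes that make and decode selenocysteine, 6 reached 1 TPM: SARS1, which charges the tRNA with serine, led with 103 ± 5.40 TPM, followed by TRNAU1AP (13.4 ± 0.376), SEPSECS (2.94 ± 1.02), PSTK (2.50 ± 1.58) and SECISBP2 (2.41 ± 1.48), the protein that binds the hairpin. EEFSEC, the elongation factor of selenocysteine, had 2, 0 and 0 counts. Of 5 selenoproteins outside the set, DIO3, a thyroid hormone deiodinase, had 18, 15 and 13 counts and 1.56 ± 0.547 TPM, DIO2 had 0, 0 and 4, and DIO1, GPX6 and SELENOV had 0.

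Of 22 further genes of the NRF2 route, 12 reached 1 TPM, and among the highest were FTL (1905 ± 540 TPM), an iron-storage chain, PGD (334 ± 85.8), which makes NADPH, TXNIP (91.5 ± 26.5), which binds thioredoxin, and ME1 (71.8 ± 21.1). NFE2L1, SRXN1, FTH1 and ABCC1 had 0 counts. Of 23 other thiol and superoxide genes, 17 reached 1 TPM, led by GLRX3 (382 ± 116), SESN2 (335 ± 55.4), CHAC1 (195 ± 103), GPX8 (28.9 ± 5.23) and SESN3 (20.5 ± 4.38). PGD stood beside GSR, which consumes NADPH, in the high class.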

How the data were processed

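RNA-seq libraries of 3 replicates of HEK293T (total RNA, QuantSeq 3′ kit) were analysed. The submitters' processing notes name Trimmomatic 0.38.0, HISAT2 2.2.1, featureCounts 2.2.1 and hg38. For each of 247541 transcripts the authors gave a raw read count. Beside it, the authors gave a TPM value, which equals this count divided by the listed length in bases and scaled to 1000000 per library. Transcripts were matched without version to GENCODE v44 (GRCh38), and 223558 transcripts of 61193 genes matched. Counts and TPM were summed per gene. Unmatched transcripts stayed in library totals. No test was made and SDs are over replicates (n = 3). Division by length lowers long transcripts, since 3′ reads do not rise with length. All 40 genes are named. Of further lists, the 5 highest genes and those at 0 counts are named, and pseudogenes with a mean of at least 1 TPM. The values of 1 listed gene are not reported here. Members, lists and pairs were chosen with earlier results of these data known. The classes were tested on simulated data, in which 100% of 200 planted genes among 61193 were placed rightly. The planted levels lay away from the class limits, none was in the low class, and counts were drawn per gene. The test therefore does not cover genes near a limit or reads shared between transcripts. Motifs were searched in RefSeq promoters. Python 3.11.15, pandas 2.3.3, numpy 2.4.6 and matplotlib 3.10.9 were used. Alternatives covered the expression threshold, scaling, transcripts counted, pseudogenes, motif rules and each replicate left out.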

Additional observations from a re-analysis of the deposited data

How the results depend on the processing

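The number of expressed members, 18, was 11 with a mean of at least 10 TPM required, and the number in the high class, 10, was then 6. Under the other thresholds and scalings these counts stayed within 1.5 times, at 16 to 27 expressed and 8 to 13 high. The median TPM of the selenoproteins, 0.104 (SD 0.0363), moved to 0.163 without mitochondrial genes, to 0.0338 with the median over replicates, to 0 with protein_coding transcripts only and to 0.256 with pseudogenes added to their parents. With 1 replicate left out it ranged from 0.0650 (without replicate 3) to 0.125 (without replicate 2). It rested on genes with at most 3 counts in each replicate. The median of the other members, 5.75 (SD 1.62), moved to 3.41 as CPM, 7.84 without mitochondrial genes, 3.97 with the median over replicates and 9.47 with pseudogenes added. The members' share of TPM, 0.386% (SD 0.0999), moved to 0.528% without mitochondrial genes. In each of these alternatives the selenoprotein median stayed under the other. The pairs in the same order numbered 10, or 11 with pseudogenes added. Putative iM- or G4-forming sequences were present for 30 of 31 genes with tracts of 2 (96.8%, beside 85.6% of 27305 genes). With 5 tracts they were present for 6 (19.4%, beside 16.5%). Of the 6 separated neighbours, TXNRD2 over TXNRD3 turned in CPM (3.63 against 5.23) and with protein_coding transcripts only (2.32 against 2.56). The cause of these moves was not tested beyond what each setting changes. Members with no 3′ base of their own numbered 16, in place of 19, with transcripts of unchanged length, a setting chosen after seeing the data. No paired analysis was possible because there was 1 condition and so nothing to pair. For the 20 members with at most 3 counts, of which 13 had no 3′ base of their own, the counts do not tell absent from expressed transcripts, and the part of shared 3′ ends was not tested.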

Other observations

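Replicate 3 differed from the other replicates in single genes of the further lists, picked here after their values were seen and given in nuclear CPM. SLC7A11, the cystine importer, was at 254, 258 and 900.8, a log2 ratio of 1.81 for replicate 3 against the mean of the others. CHAC1, which degrades glutathione, was at 101, 191 and 480 (1.72), TXNIP at 155, 146 and 374 (1.31) and GPX8 at 69.8, 62.0 and 136 (1.05). Of 5656 nuclear genes with at least 50 counts in each replicate, 0.177% had a higher ratio than SLC7A11 and 0.248% a higher one than CHAC1. Other thiol genes varied in this. The log2 ratio was 1.07 in NNT, 0.58 in SESN2, 0.40 in PARK7, 0.28 in MSRB2 and 0.03 in SESN3. It was -0.22 in GLRX3, -0.14 in GCLM, -0.13 in GSR and -0.01 in GLRX2.

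Of the genes of selenocysteine synthesis, SEPSECS, which makes selenocysteine on its tRNA, was at 8.35, 9.31 and 23.7 (1.43), TRNAU1AP at 17.2, 16.3 and 26.3 (0.65) and SARS1 at 57.5, 57.2 and 85.3 (0.57). SEPHS2, which makes the selenium donor, was lower (-0.31), and PSTK, which phosphorylates the seryl-tRNA, had 24, 19 and 9 counts. SECISBP2 had 21, 7 and 13 counts, SEPHS1 3, 1 and 3, and EEFSEC 2, 0 and 0. FTL at 1275, 1334 and 1203 (-0.12), PGD at 594, 586 and 565 (-0.06) and ME1 at 179, 198 and 174 (-0.11) lay under the median of 0.08 over all 5656 genes. These differences are between single libraries of the same condition, and no cause was tested.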
